A study of Mus musculus with 12 samples.

Results

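Genes of the vascular basement membrane were followed by symbol through all 12 deposited expression tables, 10 of the 25749 genes that each table lists. They encode the α1 and α2 chains of type IV collagen (Col4a1, Col4a2), laminin α chains (Lama2, Lama4, Lama5), laminin β chains (Lamb1, Lamb2), the laminin γ1 chain (Lamc1) and the nidogens (Nid1, Nid2). The basement membrane is the thin sheet of matrix that surrounds endothelial cells and pericytes and that astrocyte end-feet border in the brain. Laminins assemble from an α, a β and a γ chain into a network bound to cells, type IV collagen forms another network that gives the sheet its strength, and nidogens bridge both. In brain vessels the laminins with the α4 and α5 chains are known as endothelial forms and those with α2 as the astrocyte and mural cell form.

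The tissue came from male B6 mice aged 13 weeks in 3 groups of 4 mice. Group 1 was uninjured, group 2 was injured, and group 3 was injured and received continuous αLFA1/VLA4 (called antibody-treated below). LFA1 and VLA4 are leukocyte integrins that bind to the vessel wall. Mice were perfused with saline at day 20 after injury, a frozen brain cube measuring 3 mm per edge gave the RNA, and stranded libraries were made from 500 ng. The labels call the samples biological replicates of different mice, and the series title names myeloid cells and cerebrovascular injury. The injury procedure, the antibody dose and the site of the cube in uninjured mice were not stated in the labels.

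Exon reads per library ranged from 13330379 to 16121577, with the lowest totals in the antibody-treated group. The basement membrane genes together held 2741 to 4860 exon reads per library. Reads from the mitochondrial genome averaged 11.4% of all exon reads for uninjured libraries, 6.84% for injured ones and 10.04% for antibody-treated ones. Reads that cross an exon junction made up 25.2% to 26.2% of them in uninjured libraries, 27.5% to 30.9% in injured ones and 22.6% to 25.7% in antibody-treated ones, so injured and antibody-treated libraries did not overlap. Uninjured replicate 1 and antibody-treated replicate 4 had the extreme scores on the first principal component, which held 38.3% of the variance.

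On GRCm38, Col4a1 (ENSMUSG00000031502, chr8:11198423-11312826, minus strand, 61 exons) and Col4a2 (ENSMUSG00000031503, chr8:11312805-11449287, plus strand, 48 exons) lie head to head. Their annotated starts share 22 bases. This junction is shown because the chains encoded on either side assemble into the same molecule. Capitals mark the bases that lie in both genes.
Col4a1 and Col4a2 starts, chr8:11312801-11312830, plus strand: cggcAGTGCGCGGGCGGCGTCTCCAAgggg

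Lamb2 (ENSMUSG00000052911, chr9:108479736-108490530, plus strand, 40 exons) and Lama5 (ENSMUSG00000015647, chr2:180176373-180225859, minus strand, 79 exons) are the laminin genes that passed the test in at least 1 comparison below. The bases upstream of their annotated starts are shown for that reason, from the RefSeq table of promoter windows on GRCm38.p6. Capitals mark matches to the GC box GGGCGG, the TATA box TATAAA or the element CCCTCCCC, searched on both strands.
Lamb2 upstream, chr9:108479612-108479735, plus strand: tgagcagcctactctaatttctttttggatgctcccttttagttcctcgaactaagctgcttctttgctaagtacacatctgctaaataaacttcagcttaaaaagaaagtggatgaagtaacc
Lama5 upstream, chr2:180225860-180226109, minus strand: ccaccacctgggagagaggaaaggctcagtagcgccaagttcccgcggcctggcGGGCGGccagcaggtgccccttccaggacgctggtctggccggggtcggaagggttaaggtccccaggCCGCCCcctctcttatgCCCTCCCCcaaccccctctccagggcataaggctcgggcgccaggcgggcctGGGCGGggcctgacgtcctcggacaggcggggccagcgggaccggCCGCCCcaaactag

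The promoter table held 7 of the 10 genes, with windows of 300 bases. A GC box was present in 35.7% of all 32851 windows, and it was present in those of Lama5 with 4 matches, Col4a2 with 3, Lamb1 with 2, and Col4a1, Lama2 and Nid1 with 1 each. Lamb2 had none of these letters in its window, and the windows of Col4a1 and Col4a2 overlap, so their matches are shared in part. The element CCCTCCCC, present in 10.8% of all windows, had 1 match each for Lama5, Col4a1, Col4a2 and Nid1. No window of these genes held TATAAA, which 13.6% of all windows held. These are letter matches only. Lama4, Lamc1 and Nid2 were not in the table.

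The remaining genes lie at chr10:26980036-27619758 (Lama2, minus strand), chr10:38965515-39110188 (Lama4, plus strand), chr12:31265234-31329644 (Lamb1, plus strand), chr1:153218922-153332786 (Lamc1, minus strand), chr13:13437551-13512269 (Nid1, plus strand) and chr14:19751265-19811787 (Nid2, plus strand). Exons of Nid2 share 437 bases with Rtraf on the opposite strand, and use of the strand in counting is not stated, so the reads of Nid2 are uncertain. The exon reads of all 10 genes were unique in every library.

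Compared per transcript length, as TPM (a transcript share scaled for length), the collagen chains and Lamb2 were the most abundant. In uninjured mice Col4a2 averaged 20.3 ± 1.33 TPM (SD, n = 4), Col4a1 14.8 ± 1.83, Lamb2 12.2 ± 0.852, Lamc1 9.85 ± 1.82 and Lamb1 9.03 ± 0.679. A lower tier followed, with Lama2 at 3.86 ± 0.384 TPM, Nid1 at 3.75 ± 0.957, Lama4 at 3.61 ± 0.370, Lama5 at 2.68 ± 0.255 and Nid2 at 2.29 ± 0.426. The libraries of neighbours in this order overlapped, except between Col4a2 and Col4a1, between Lamb1 and Lama2 and between Lama4 and Lama5. In injured mice Lamb2 stood apart from Lamc1 (19.7 ± 2.35 against 10.7 ± 1.43 TPM) and lay close to Col4a1 (20.3 ± 2.33 TPM). In antibody-treated mice Col4a2 (19.4 ± 3.13 TPM) and Col4a1 (15.7 ± 3.53 TPM) overlapped. The summed level of all 10 genes was 82.4 ± 6.75 TPM in uninjured mice, 108 ± 12.6 in injured mice and 83.8 ± 14.5 in antibody-treated mice.

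**Figure D1:**
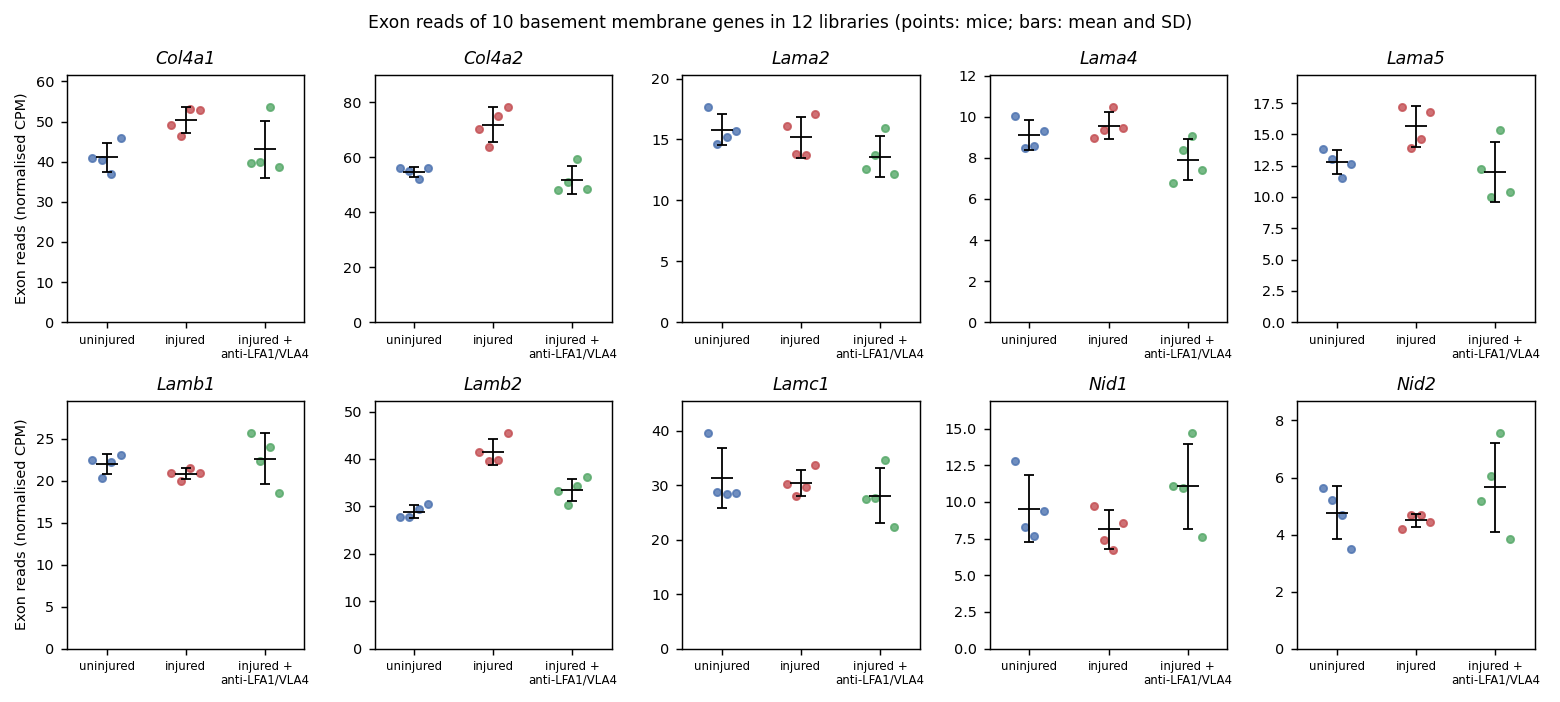
Exon reads of each gene in normalised CPM (reads scaled to a common library size), 1 panel per gene with its own axis from 0, by group. Points are mice and bars the mean and SD of 4. Col4a2 and Lamb2 are higher in all 4 injured mice than in any uninjured or antibody-treated mouse.

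The first comparison asked which basement membrane transcripts differed in injured tissue. Injured mice had higher Col4a2 and Lamb2 than uninjured mice, 2 of 10 genes, and none was lower. Across all 14771 genes tested 11.9% were higher and 11.0% lower, so 2 of 10 is near the background share. With library size alone as the scaling 76.0% of all called genes were higher in place of 51.9%. The median of all genes shifted from 0.03 to 0.11. Under that scaling 4 of the 10 genes were higher, Col4a1 and Lama5 with the 2 above, beside 21.4% of all genes tested. On the deposited TPM, tested with limma on log2(TPM + 0.1), 95.1% of called genes were higher and the median of all genes was 0.19. Col4a1 (0.45), Col4a2 (0.55) and Lamb2 (0.68) were higher there, 3 of 10 genes beside 30.7% of all genes tested. The median log2 fold change of the 10 genes was 0.02 and that of all genes 0.03. These are RNA levels of whole tissue, in which a change in the number of vessel cells and a change in RNA per cell cannot be told apart.

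Of the collagen chains, Col4a2 had 56.0, 54.9, 52.0 and 55.9 CPM in uninjured replicates 1 to 4 and 70.1, 63.6, 75.0 and 78.3 CPM in injured replicates 1 to 4. All 4 injured mice lay above all uninjured mice. The mean rose from 54.7 ± 1.86 to 71.8 ± 6.39 CPM (SD, n = 4; 1.31-fold, log2 fold change of 0.39 with an SE of 0.08, edgeR adjusted p = 0.00817). Col4a1 had 41.0, 40.5, 37.0 and 45.9 CPM in uninjured and 49.0, 46.4, 53.2 and 52.9 CPM in injured mice. Its groups did not overlap either, but the lowest injured mouse lay just above the highest uninjured one, and the log2 fold change of 0.29 (SE 0.10) did not pass (edgeR adjusted p = 0.0575).

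Of the laminin β chains, Lamb2 encodes β2, a chain of vascular and neuromuscular basement membranes, and Lamb1 encodes β1. Lamb2 had 27.8, 27.8, 29.5 and 30.6 CPM in uninjured and 41.5, 39.5, 39.7 and 45.4 CPM in injured mice. The gap between the groups was wider than the range within either. Its mean rose from 28.9 ± 1.39 to 41.5 ± 2.75 CPM (SD, n = 4; 1.44-fold, log2 fold change of 0.52 with an SE of 0.07, edgeR adjusted p = 0.00121). Lamb1 had 22.5, 20.3, 22.3 and 23.0 CPM in uninjured and 21.0, 19.9, 21.6 and 20.9 CPM in injured mice, with overlap (log2 fold change -0.08, SE 0.09, edgeR adjusted p = 0.535).

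The laminin α chains set the tissue form of a laminin. Lama5 had 13.8, 13.0, 11.5 and 12.6 CPM in uninjured and 17.2, 13.9, 14.6 and 16.8 CPM in injured mice. The groups only just missed overlap and the difference did not pass (log2 fold change 0.29, SE 0.13, edgeR adjusted p = 0.104). Lama4 averaged 9.10 ± 0.717 CPM in uninjured and 9.57 ± 0.643 in injured mice, and Lama2 15.8 ± 1.31 and 15.2 ± 1.68 CPM (SD, n = 4). Both overlapped between groups, with log2 fold changes of 0.07 (SE 0.10) and -0.06 (SE 0.11).

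Lamc1, the γ chain that most laminins share, had 39.6 CPM in uninjured replicate 1 and 28.4 to 28.8 CPM in the other uninjured mice, against 28.0 to 33.7 CPM in injured mice. The groups overlapped, and the log2 fold change was -0.04 (SE 0.13, edgeR adjusted p = 0.841). Nid1 had 7.65 to 12.8 CPM in uninjured and 6.75 to 9.74 CPM in injured mice (log2 fold change -0.23, SE 0.20). Nid2 had 3.49 to 5.65 and 4.20 to 4.70 CPM (log2 fold change -0.08, SE 0.19). Neither nidogen passed, and both varied widely among uninjured mice.

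Log2 fold changes in this comparison went with GC content across the genome. With genes split into 5 equal bins of GC content, the lowest bin had a median log2 fold change of -0.30 and the highest one of 0.26. Col4a1, Col4a2, Lama5 and Lamb2, with 57.7% to 60.6% GC in their longest transcript, all belong to the highest bin. With a smooth trend of GC content and length removed from each library, an alternative chosen after seeing the data, Col4a2 was higher by a log2 fold change of 0.21 (edgeR adjusted p = 0.0121) and Lamb2 by 0.35 (edgeR adjusted p = 0.00441). Both genes kept their call at smaller values than the 0.39 and 0.52 above.

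**Figure D2:**
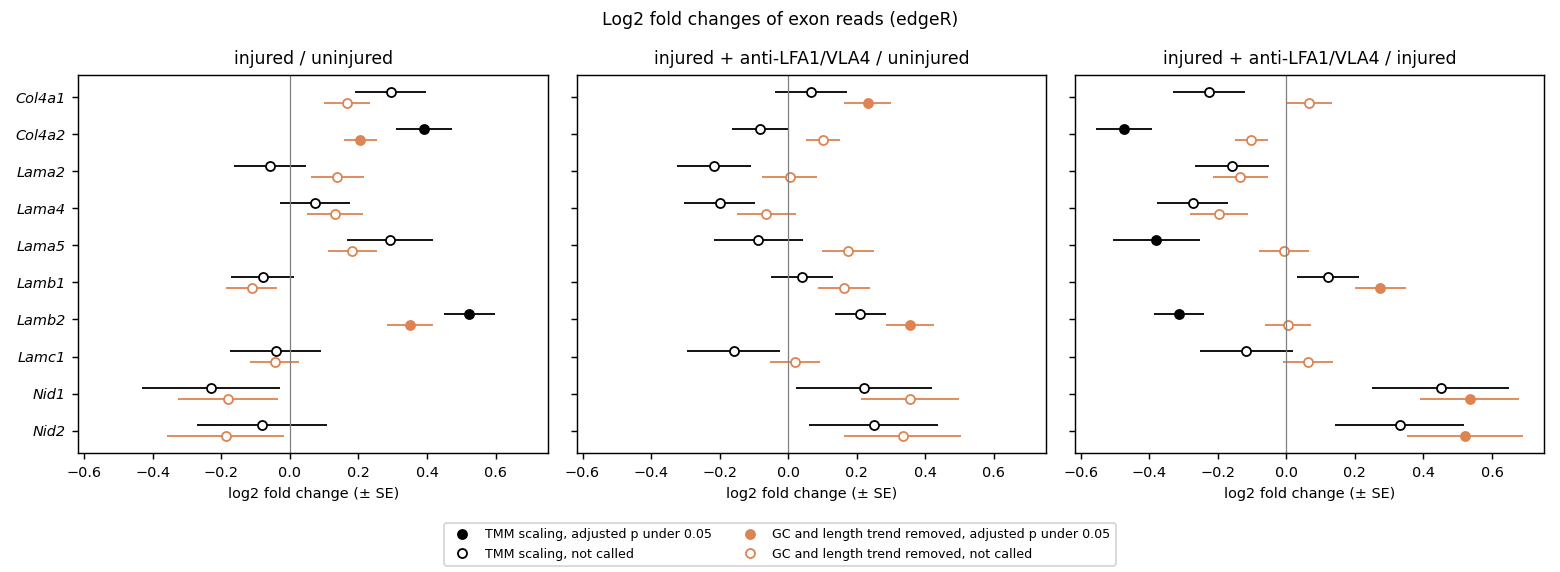
Log2 fold change (horizontal axis) with SE for each gene in 3 comparisons from edgeR, with TMM scaling (black) and after removal of the GC and length trend (orange); filled points have an adjusted p under 0.05. Col4a2 and Lamb2 are filled in both colours for injured against uninjured, and in black only for antibody-treated against injured.

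Antibody-treated mice were then set against uninjured mice. None of the 10 genes passed in edgeR, against 6.30% of all genes higher and 3.22% lower. At an unadjusted p under 0.05, a threshold at which all genes were not counted, there was 1 of 10. The higher share of all calls was 66.2% with TMM, 86.3% with library size alone and 89.1% on log2(TPM + 0.1). DESeq2 and limma voom made no call either. Lamb2 came closest, with 33.2, 30.3, 34.2 and 36.1 CPM in antibody-treated replicates 1 to 4. Of these mice 1 lay within the uninjured range (log2 fold change 0.21, SE 0.07, edgeR adjusted p = 0.0907). Col4a2 had a log2 fold change of -0.08 (SE 0.08), Col4a1 one of 0.07 (SE 0.11) and Lama5 one of -0.09 (SE 0.13). Those of Lama2 (-0.22, SE 0.11), Lama4 (-0.20, SE 0.10), Lamb1 (0.04, SE 0.09), Lamc1 (-0.16, SE 0.14), Nid1 (0.22, SE 0.20) and Nid2 (0.25, SE 0.19) had adjusted p-values in edgeR of 0.213 or more. With the GC and length trend removed, 2 genes were higher, Lamb2 by 0.36 (edgeR adjusted p = 0.00284) and Col4a1 by 0.23 (edgeR adjusted p = 0.0312), beside 10.3% of all genes. Without antibody-treated replicate 3, Lama2 was lower, at -0.31 (edgeR adjusted p = 0.0425), beside 12.9% of all genes.

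The third comparison set antibody-treated against injured mice. Col4a2, Lamb2 and Lama5 were lower in antibody-treated mice, 3 of 10 genes, and none was higher. Of all genes 10.7% were lower and 10.9% higher, and the median log2 fold change was -0.19 for the 10 genes and 0.01 for all genes. On log2(TPM + 0.1) in limma the higher share of all calls was 16.3%, against 50.5% with TMM, and the median of all genes was -0.15. There 4 of the 10 genes were lower, Col4a2 (-0.62), Lamb2 (-0.46), Lama5 (-0.53) and Lama4 (-0.42), beside 21.3% of all genes tested. None of the 3 calls held with the GC and length trend removed. There the log2 fold changes were -0.10 for Col4a2 (edgeR adjusted p = 0.163), 0.0051 for Lamb2 (0.973) and -0.0080 for Lama5 (0.962).

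Col4a2 had 47.9, 51.0, 59.3 and 48.6 CPM in antibody-treated replicates 1 to 4, all below the 63.6 to 78.3 CPM of injured mice. It fell by 0.47 on the log2 scale (SE 0.08, edgeR adjusted p = 0.00192). Lamb2 also showed no overlap with the 39.5 to 45.4 CPM of injured mice and fell by 0.31 (SE 0.07, edgeR adjusted p = 0.00954). Lama5 had 12.2, 10.03, 15.3 and 10.4 CPM in antibody-treated mice, and replicate 3 lay within the injured range. Its log2 fold change of -0.38 (SE 0.13) passed narrowly (edgeR adjusted p = 0.0494) and was called in 9 of 22 alternatives. Under the replicate block its edgeR adjusted p was 0.0732.

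Among the genes that did not pass, Col4a1 had 39.7, 40.1, 53.7 and 38.8 CPM in antibody-treated mice. Replicate 3 lay above every injured mouse and the other 3 lay below every injured mouse (log2 fold change -0.23, SE 0.10, edgeR adjusted p = 0.139). Without replicate 3 there were 5 lower genes, with Col4a1 at -0.33 (edgeR adjusted p = 0.0102) and Lama4 at -0.33 (edgeR adjusted p = 0.0389) beside the 3 named above. Of all genes 11.0% were lower and 13.2% higher in that run. With all mice Lama4 had 6.78 to 9.05 CPM against 8.98 to 10.5 CPM in injured mice (log2 fold change -0.27, SE 0.10, edgeR adjusted p = 0.0762). Lama2, Lamb1 and Lamc1 had log2 fold changes of -0.16 (SE 0.11), 0.12 (SE 0.09) and -0.12 (SE 0.14).

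The nidogens had positive values. Nid1 had 11.1, 11.0, 14.7 and 7.58 CPM in antibody-treated and 9.74, 7.41, 6.75 and 8.58 CPM in injured mice, and replicate 4 alone lay within the injured range. Its log2 fold change was 0.45 (SE 0.20, edgeR adjusted p = 0.123), and that of Nid2 0.33 (SE 0.19, edgeR adjusted p = 0.227). With the GC and length trend removed 3 genes were higher, Nid1 by 0.53 (edgeR adjusted p = 0.0211), Nid2 by 0.52 (edgeR adjusted p = 0.0489) and Lamb1 by 0.27 (edgeR adjusted p = 0.0225). Of all genes 9.44% were higher there. Without the 2 libraries of extreme score on the first component, also chosen after seeing the data, Nid1 (0.59, edgeR adjusted p = 0.0117) and Nid2 (0.47, edgeR adjusted p = 0.0405) were higher and Col4a2 (-0.45) and Lamb2 (-0.35) lower. Of all genes 13.9% were higher and 13.6% lower in that run. Without antibody-treated replicate 4 Nid1 was higher by 0.59 (edgeR adjusted p = 0.0311).

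GC content ran the other way in this comparison, with a median log2 fold change of 0.27 in the lowest bin of genes and -0.21 in the highest. The junction share differed as well. For Col4a1 50.3% to 57.6% of exon reads crossed a junction in injured mice and 28.4% to 51.4% in antibody-treated mice. For Col4a2 the shares were 48.2% to 52.8% and 27.4% to 47.2%, without overlap. Antibody-treated replicate 4 was lowest and replicate 3 highest of that group for both collagen genes. The shares of Lamb2 overlapped, with 49.2% to 53.8% in injured and 44.9% to 54.7% in antibody-treated mice. The part of the junction share in these results was not tested.

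**Figure D3:**
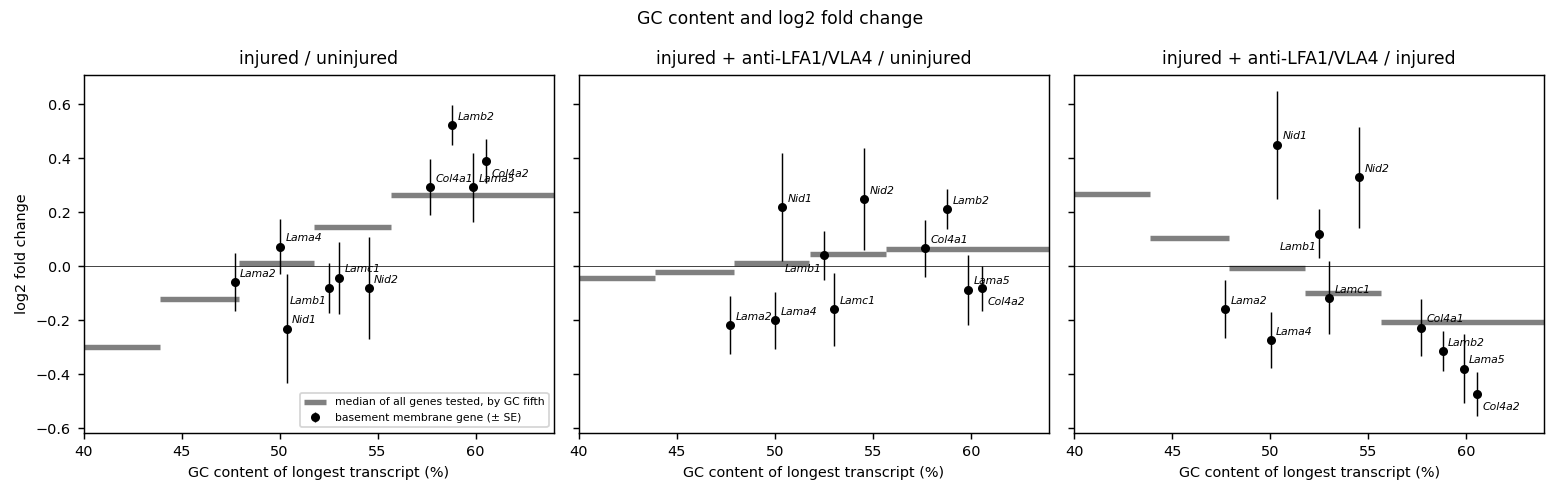
Log2 fold change (vertical axis, with SE) against GC content of the longest transcript in percent for the 10 genes, in 3 comparisons. Grey lines are the medians of all genes tested in each of 5 bins of GC content, running from -0.30 to 0.26 for injured against uninjured and from 0.27 to -0.21 for antibody-treated against injured.

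**Figure D4:**
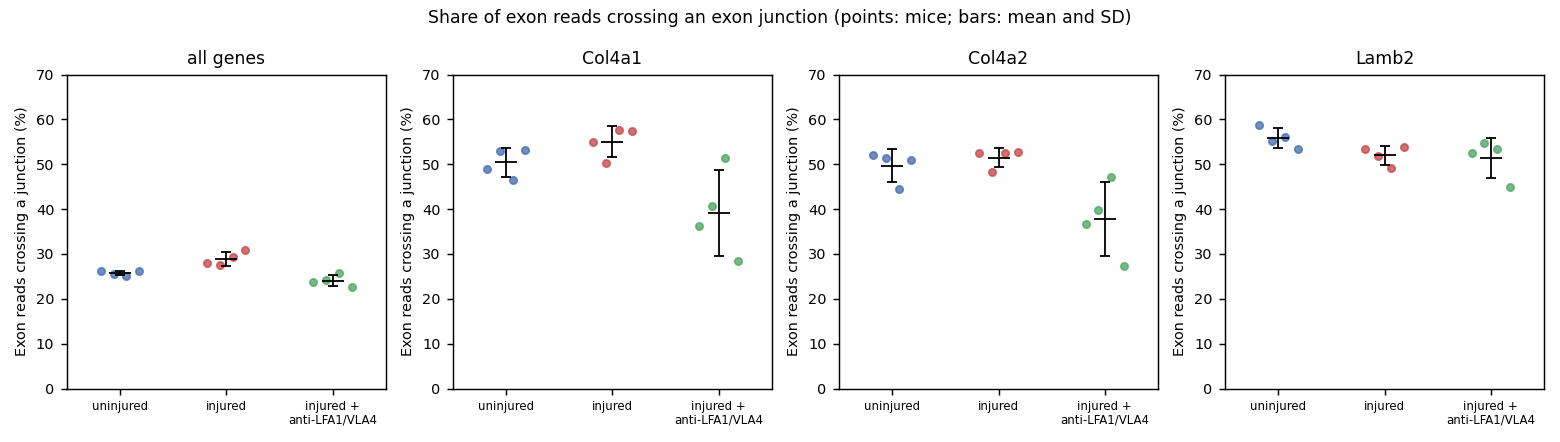
Percent of exon reads that cross an exon junction, for all genes, Col4a1, Col4a2 and Lamb2, by group. Points are mice and bars the mean and SD of 4. The values of both collagen genes in antibody-treated mice spread from 27.4% to 51.4%.

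Ratios between partner genes within a library do not depend on library scaling. The GC and length trend was not removed from them, and the partners differ in GC content. It is 52.5% for Lamb1 and 58.8% for Lamb2, 57.7% for Col4a1 and 60.6% for Col4a2, and 50.4% for Nid1 and 54.6% for Nid2. The part of that trend in the ratios was not tested. The ratio of Lamb1 to Lamb2 exon reads was 0.762 ± 0.0326 (SD, n = 4) in uninjured mice, 0.503 ± 0.0342 in injured mice and 0.682 ± 0.116 in antibody-treated mice. Injured mice (0.460 to 0.543) lay below all uninjured mice (0.732 to 0.809), and antibody-treated mice reached from 0.514 to 0.774. The mean log2 ratio differed by -0.60 between injured and uninjured mice (exact two-sided permutation test, p = 0.0286, adjusted p = 0.129). Between antibody-treated and injured mice it differed by 0.42 (exact permutation p = 0.0571, adjusted p = 0.129). The smallest p that 4 against 4 mice allow is 0.0286, and p-values were adjusted over 9 tests. None passed, but a ratio at the smallest p can pass only if most of the 9 tests reach it together. The adjusted test therefore cannot decide on a single ratio, even where the groups are fully apart.

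The ratio of Col4a1 to Col4a2 was 0.751 ± 0.0485 in uninjured mice, 0.703 ± 0.0225 in injured mice and 0.830 ± 0.0535 in antibody-treated mice (SD, n = 4). Antibody-treated mice (0.785 to 0.905) lay above all injured mice (0.676 to 0.730). Their mean log2 ratio differed by 0.24 (exact permutation p = 0.0286, adjusted p = 0.129). Nid1 to Nid2 ratios overlapped in every pair of groups, with means from 1.82 to 2.04 (smallest exact permutation p = 0.429, adjusted p = 0.551). As a share of laminin β TPM, Lamb2 held 57.5 ± 1.03% in uninjured mice, 67.2 ± 1.50% in injured mice and 60.4 ± 4.33% in antibody-treated mice.

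**Figure D5:**
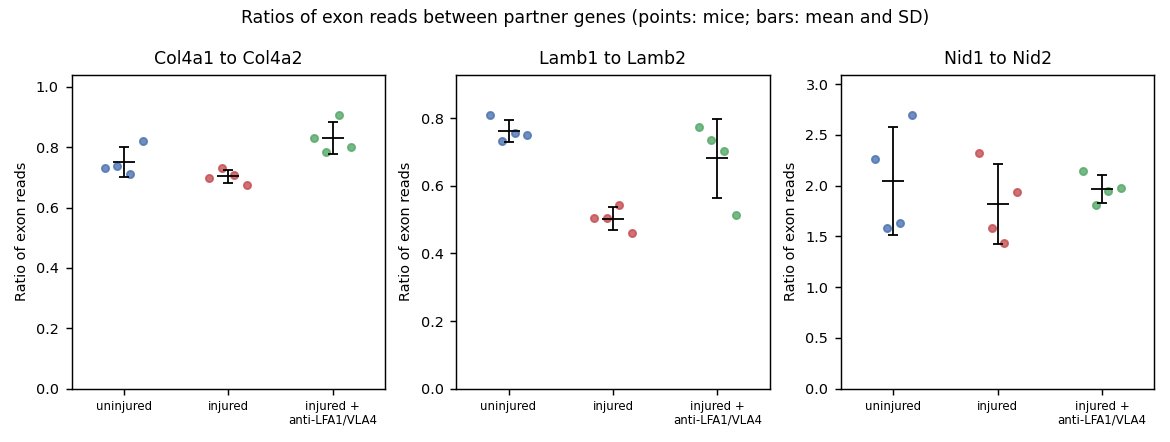
Ratio of exon reads (vertical axis, from 0) between the partner genes Col4a1 and Col4a2, Lamb1 and Lamb2, and Nid1 and Nid2, by group. Points are mice and bars the mean and SD of 4. The Lamb1 to Lamb2 ratio of all 4 injured mice (0.460 to 0.543) lies below that of all uninjured mice.

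Intron reads, which mostly come from RNA not yet spliced, were tested for 9 of the 10 genes, since Nid1 had too few. None passed in any comparison in edgeR, against 0.488% of all genes for injured against uninjured, 0.674% for antibody-treated against uninjured and 9.50% for antibody-treated against injured. At an unadjusted p under 0.05 the numbers were 1, 1 and 4 of 9. The shares above are for adjusted p, and all genes were not counted at the unadjusted threshold, so no excess can be read from these numbers. Lamb2 intron reads averaged 17.7 ± 3.20 CPM in uninjured mice, 26.4 ± 5.86 in injured mice and 15.9 ± 6.36 in antibody-treated mice (SD, n = 4). The log2 fold change of Lamb2 introns was 0.58 (SE 0.26, edgeR adjusted p = 0.273) for injured against uninjured and -0.77 (SE 0.28, edgeR adjusted p = 0.0768) for antibody-treated against injured. For antibody-treated against injured, Lama2 introns had a log2 fold change of 0.63 (SE 0.22, edgeR adjusted p = 0.0747). Those of Lama4 had 0.64 (SE 0.26, edgeR adjusted p = 0.114) and those of Col4a1 0.42 (SE 0.19, edgeR adjusted p = 0.151). Col4a1 introns did not overlap between these groups. In this comparison intron and exon changes were opposite in sign for Lama2, Lama4, Col4a1, Col4a2, Lamc1 and Nid2. They had the same sign for Lama5, Lamb1 and Lamb2. The intron value was 0.03 (SE 0.20) for Col4a2, 0.15 (SE 0.19) for Lamc1 and -0.47 (SE 0.35) for Nid2. It was -0.08 (SE 0.27) for Lama5 and 0.15 (SE 0.23) for Lamb1. Those of Col4a2, Lamc1, Lama5 and Lamb1 were smaller than their SE, so their signs are uncertain. Signs were not compared over all genes. With single libraries left out, 1 gene passed in each of 3 runs of this comparison, a different gene each time. Lama2 introns were higher by 0.78 (edgeR adjusted p = 0.0222) without antibody-treated replicate 3, beside 8.70% of all genes. Lama4 introns were higher by 0.95 (edgeR adjusted p = 0.0233) without injured replicate 2, beside 5.80% of all genes. Lamb2 introns were lower, at -1.04 (edgeR adjusted p = 0.0479), without antibody-treated replicate 2, beside 2.23% of all genes. Col4a2 introns stayed between 31.4 and 66.5 CPM in all 12 libraries. The 9 genes had from 2 intron reads per library (Nid2) to 71 (Col4a2). Whether this depth limits the calls was not tested.

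Of 26 listed and tested genes for other components of basement membranes 8 were higher and none lower in injured than in uninjured mice, beside 11.9% higher and 11.0% lower among all genes. Their median log2 fold change was 0.20. The counts for this and the following lists were made with TMM scaling only, and no list was tested against other genes. The higher genes were Fbln1 (fibulin 1, log2 fold change 0.69, SE 0.12, edgeR adjusted p = 0.00382), Vwa1 (0.56, SE 0.10), Smoc1 (0.47), Col15a1 (0.55), Emilin1 (0.70), Sparc (0.29), Col18a1 (0.38) and Smoc2 (0.21). Sparc, a calcium-binding protein that binds collagen, rose from 238 ± 11.4 to 291 ± 15.3 CPM (SD, n = 4). Col15a1 and Col18a1 encode collagens of vascular basement membranes.

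Against uninjured mice the antibody-treated mice had 8 of these 26 genes higher and 2 lower, beside 6.30% and 3.22% of all genes. Fbln1 rose by 1.08 (SE 0.12, edgeR adjusted p = 7.95e-05) and Sparc by 0.61 (SE 0.07, edgeR adjusted p = 6.60e-05), to 364 ± 28.8 CPM. Smoc1 (0.53), Emilin1 (0.88), Smoc2 (0.33), Fbln2 (0.64), Tinagl1 (0.43) and Col18a1 (0.44) were also higher. Npnt (-0.51), which encodes the integrin ligand nephronectin, and Lama3 (-0.62) were lower. Against injured mice 4 were higher, Sparc (0.33), Fbln2 (0.57), Fbln1 (0.39) and Tinagl1 (0.31), and 3 lower, Npnt (-0.33), Agrn (agrin, -0.34) and Col15a1 (-0.33), beside 10.9% and 10.7% of all genes.

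Genes that fold, hydroxylate or cross-link collagen were higher in 7 of 22 tested for injured against uninjured, 7 for antibody-treated against uninjured and 5 for antibody-treated against injured mice, and none was lower. Among all genes 11.9%, 6.30% and 10.9% were higher in these comparisons. Serpinh1, the collagen chaperone HSP47, rose from 17.0 ± 0.674 to 23.2 ± 0.858 CPM in injured mice (log2 fold change 0.45) and to 31.1 ± 2.35 CPM in antibody-treated mice (SD, n = 4; 0.87, SE 0.07, edgeR adjusted p = 4.29e-06). P3h3, of the prolyl 3-hydroxylase family, rose by 0.45 in injured mice. The cross-linking enzyme Lox rose by 1.71 over uninjured and 1.17 over injured mice in antibody-treated mice, and P4ha1, a prolyl 4-hydroxylase subunit, by 0.49 over injured mice. These enzymes also act on fibrillar collagens.

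Proteases of the basement membrane and their inhibitors were higher in 10 of 16, 10 of 16 and 6 of 16 genes in the same order of comparisons, with none lower, beside the same shares of all genes. Mmp14, a membrane-bound metalloprotease, rose from 10.1 ± 0.792 to 19.0 ± 1.64 CPM in injured mice (SD, n = 4; log2 fold change of 0.91 with an SE of 0.09, edgeR adjusted p = 9.36e-05), and Ctss, cathepsin S, rose by 0.53. Mmp2, a type IV collagenase, averaged 2.95 ± 0.664 CPM in uninjured mice, 4.09 ± 0.588 in injured mice and 11.7 ± 0.462 in antibody-treated mice (SD, n = 4). It rose by 1.99 over uninjured mice (edgeR adjusted p = 1.07e-06) and by 1.52 over injured mice (1.47e-05). Mmp3 rose by 2.06 and 1.84 in the same comparisons.

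Receptors for the basement membrane were mixed. For injured against uninjured 5 of 15 tested were higher and 3 lower, with Ddr1, a collagen receptor kinase, at 0.39 (SE 0.06) and Cd151, a tetraspanin partner of laminin-binding integrins, at 0.29 (SE 0.08). Cd151 was the 1 receptor higher in antibody-treated than in uninjured mice (0.38, edgeR adjusted p = 0.00608). Against injured mice 3 were higher and 3 lower, with Ddr1 at -0.47 (edgeR adjusted p = 0.000383) and Sgce, a sarcoglycan, at 0.47 (edgeR adjusted p = 0.00317). The shares of all genes higher and lower were 11.9% and 11.0%, 6.30% and 3.22%, and 10.9% and 10.7% in these 3 comparisons.

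Markers of the cells that make or border this matrix were counted in the same way. Their counts stand beside 11.9% of all genes higher and 11.0% lower for injured against uninjured mice. The shares were 6.30% and 3.22% for antibody-treated against uninjured mice, and 10.9% and 10.7% for antibody-treated against injured mice. The summed level of 16 endothelial markers was 478 to 490 CPM in uninjured mice, 453 to 466 in injured mice and 469 to 493 in antibody-treated libraries. Of them 1 was higher and 2 lower in injured, 1 higher and 1 lower in antibody-treated against uninjured, and none called for antibody-treated against injured mice. The 2 lower in injured mice were Slco1a4, a transporter of brain endothelium, which fell by 0.66, and Emcn, which fell by 0.47. Cldn5, the tight junction protein claudin 5, averaged 38.7 ± 6.62 CPM in uninjured mice, 56.8 ± 7.74 in injured mice and 59.3 ± 15.9 in antibody-treated mice (SD, n = 4). The 15 pericyte and smooth muscle markers summed to 359 to 392 CPM, 363 to 385 and 374 to 392 in the same order. There 2 were higher and 2 lower, 2 higher and none lower, and 3 higher and 2 lower in the comparisons as ordered above. Rgs5, a pericyte gene, fell by 0.46 in injured mice, and Anpep rose by 0.61 in injured and 1.20 in antibody-treated over uninjured mice.

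Astrocyte markers summed to 3948 to 4775 CPM in uninjured mice, 3967 to 4343 in injured mice and 3737 to 4505 in antibody-treated libraries. Of 10, 4 were higher in injured mice, 2 were higher in antibody-treated than in uninjured mice, and 1 was higher and 2 lower against injured mice. The shares of all genes are those given with the endothelial markers. Gfap, the astrocyte filament protein, had a log2 fold change of 1.10 in both groups over uninjured mice. The median of the 10 markers was 0.06 in both groups over uninjured mice. The 2 lower in antibody-treated than in injured mice were Acsbg1 (-0.38) and Fgfr3 (-0.28), and exons of Fgfr3 overlap those of another gene.

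Markers of other tissues moved with the groups as well, beside the same shares of all genes. Of 16 fibroblast and meningeal markers 7 were higher in injured and 13 in antibody-treated than in uninjured mice, and 10 were higher against injured mice. Their sums were 651 to 834, 955 to 1123 and 1216 to 1720 CPM in uninjured, injured and antibody-treated libraries, in large part from Ptgds. Col3a1, type III collagen, rose by 3.59 over injured mice, to 128 ± 8.23 CPM (SD, n = 4), and Dcn, decorin, by 1.23. Of 15 skeletal muscle markers 1 was higher in injured mice and 14 in antibody-treated mice against either group, with sums of 66.4 to 91.8, 79.5 to 107 and 199 to 279 CPM. Myh1, a fast muscle myosin, averaged 0.933 ± 0.0696 CPM in uninjured and 26.3 ± 1.46 in antibody-treated mice (SD, n = 4). Of 10 choroid plexus markers 6 were lower in injured mice, 3 higher in antibody-treated than in uninjured mice and 10 higher against injured mice, with sums of 985 to 1307, 800 to 1098 and 1150 to 1902 CPM. Muscle fibres, meninges and choroid plexus have basement membranes of their own, and their part in the values of the 10 genes was not tested.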

How the data were processed

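Per the submitters' processing notes, CASAVA 1.8.2, FastQC 0.11.8, Trimmomatic 0.39 and the build GRCm38 were used. Which aligner and counter were run, and whether by strand, is not given in the sources used here. The authors deposited whole-number read counts per gene over exons, introns and exon junctions, and TPM, per the file headers. The counts were tested as deposited, and the TPM was used to compare levels between genes. Coordinates matched GENCODE M21 for all 10 genes.

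The 10 genes and all gene lists were chosen with earlier results of these data known. Genes with low counts were removed with filterByExpr of edgeR 4.0.16 in R 4.3.3, which left 14771 genes for exon reads and 11279 for intron reads. All 10 genes passed for exon reads. Libraries were scaled with TMM factors, and 1 quasi-likelihood model held all 12 libraries with group as its term and 9 residual degrees of freedom. Tests were two-sided with Benjamini-Hochberg adjustment over all genes tested at 0.05. The SE is that of the log2 fold change. Ratios within a library were compared with exact permutation tests. All pairs of libraries within a group differed by more than counting noise, with a chi-square per degree of freedom of 2.89 to 46.98.

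Alternatives were DESeq2 1.42.0 size factors and Wald test, library size alone, no filter, 1 CPM in 4 libraries, limma 3.58.1 voom, only the compared groups, a replicate block, unique reads, TPM in limma with pseudocounts of 0.1 (also unfiltered) and 1, and each library left out. Another 2 were added after the data had been seen: removal of a GC and length trend with mgcv 1.9.3, and leaving out the libraries of extreme score on the first principal component. The code was tested on simulated counts. Genes named from other lists came from the 2 of smallest p among those called per comparison. All called genes of the other basement membrane components were named. In marker lists the 2 of highest TPM and those without a read in a group were also named. Of the 2 of smallest p, not every gene is named or given with a fold change.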

Additional observations from a re-analysis of the deposited data

Results flagged for a closer look

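In 66 sets of 4 mice (exon reads, intron reads and ratios of the 10 genes by group), 3 held a mouse far from the other 3 by Dixon's criterion. Chance gives about 1 in 20 sets. Lamc1 exon reads stood at 39.6 CPM in uninjured replicate 1, against 28.4 to 28.8 CPM in the other uninjured mice. Col4a1 exon reads stood at 53.7 CPM in antibody-treated replicate 3, against 38.8 to 40.1 CPM in the rest of that group. Lama4 intron reads stood at 65.6 CPM in antibody-treated replicate 4, against 33.3 to 38.5 CPM. Uninjured replicate 1 and antibody-treated replicate 4 also had the extreme scores on the first principal component.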

How the results depend on the processing

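Col4a2 and Lamb2 were called higher in injured than in uninjured mice in all 22 alternatives, with log2 fold changes of 0.21 to 0.55 and 0.35 to 0.68. The number of higher genes there was 4 with library size alone, with only the compared groups and with TPM at a pseudocount of 1, and 2 with every single library left out. Of all genes 21.4%, 15.5% and 31.5% were higher in these settings, and 4.61% to 11.1% with single libraries left out. Antibody-treated against uninjured mice had 2 higher genes after removal of the GC and length trend, beside 10.3% of all genes. With single libraries left out there were 0 to 1 lower genes, beside 1.43% to 12.9% of all genes. Antibody-treated against injured mice had 3 higher and 0 lower genes with that trend removed, beside 9.44% and 6.72% of all genes. Without the libraries of extreme score on the first component 2 were higher and 2 lower, beside 13.9% and 13.6%. With single libraries left out 0 to 1 were higher and 2 to 5 lower, where 5 came without antibody-treated replicate 3. Of all genes 7.08% to 13.2% were higher and 5.63% to 12.2% lower in those runs of this comparison. With the trend removed the value of Lamb2 there turned from -0.31 to 0.0051. Intron reads gave 0 to 1 called genes in that comparison with single libraries left out, and the gene differed between those runs. Of all genes tested on intron reads, 0.856% to 8.70% were higher and 0.673% to 6.80% lower there. The cause of these shifts was not tested. No ratio passed in any alternative. With 4 or fewer mice per group the adjusted permutation test has little room to pass, so this does not show stability.

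The labels give no pairing of mice by replicate number, so the main model held group alone. The correlation of deviations between same-numbered mice exceeded 0.1 in 2 of 4 pairs for injured and uninjured mice and in 0 of 4 for both other pairs of groups. Mice of different number reached 0.352 for injured and uninjured mice. They reached 0.603 for antibody-treated and uninjured mice and 0.460 for antibody-treated and injured mice. With 4 same-numbered pairs per comparison this check can neither show nor exclude pairing. With the replicate block 2 of the 10 genes rose in injured over uninjured mice, 0 were called for antibody-treated against uninjured and 2 were lower against injured mice. The same block called 1278 higher (8.65%) and 1265 lower among all genes for injured against uninjured, in place of 1764 and 1632. For antibody-treated against injured it called 7.60% of all genes lower. Counts were lowest for Nid2 and for the intron reads.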

Other observations

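Of 10 Schwann cell and peripheral nerve markers 5 passed the count filter. The shares of all genes called are those given with the endothelial markers above. In injured against uninjured mice 1 was higher (Egr2, log2 fold change 0.70) and 1 lower (Mal, a myelin protein shared with oligodendrocytes, -0.34). In antibody-treated mice 2 were lower than in uninjured mice (Mal, -0.35, and Drp2, -0.41) and 2 lower than in injured mice (Sox10, -0.32, and Egr2, -0.39). Foxd3 had no read in uninjured or injured mice, and Pmp2 had none in injured or antibody-treated mice. The list summed to 483 to 500 CPM in uninjured, 392 to 424 in injured and 384 to 398 in antibody-treated libraries.

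Of 10 bone and cartilage markers 8 passed the filter, with 2 higher in injured than in uninjured mice, and 3 and 2 higher in antibody-treated mice against uninjured and injured mice. Of all genes 11.9%, 6.30% and 10.9% were higher in these comparisons. Alpl, alkaline phosphatase, rose by 0.32 in injured and 0.53 in antibody-treated over uninjured mice. Bglap, osteocalcin, had no read in uninjured mice, and averaged 0.334 ± 0.246 CPM in injured and 1.79 ± 0.810 in antibody-treated mice (SD, n = 4). Ibsp, bone sialoprotein, averaged 0.183 ± 0.0819, 0.153 ± 0.0354 and 1.11 ± 0.303 CPM. The list summed to 24.8 to 28.1, 25.0 to 31.9 and 30.3 to 33.7 CPM.

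The most abundant genes of each marker list, as mean TPM over the 12 libraries, were Cldn5 (90.7) and Slc2a1 (69.1) for endothelium and Vtn (123) and Rgs5 (70.2) for pericytes and smooth muscle. Ptgds (2119) and Dcn (33.0) led the fibroblast and meningeal list, and Slc1a2 (475) and Gfap (359) that of astrocytes. Ttr, transthyretin (2306), and Kl (14.3) led the choroid plexus list. In the muscle list these were Pvalb (167), which brain interneurons also express, and Acta1 (31.8). Mal (266) and Sox10 (41.6), both also expressed by oligodendrocytes, led the Schwann cell list, and Alpl (10.4) and Dmp1 (5.94) the bone list.

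The coefficient of variation of exon CPM was highest in antibody-treated mice for each of the 10 basement membrane genes, from 7.24% for Lamb2 to 27.7% for Nid2. It ran from 3.26% (Lamb1) to 16.3% (Nid1) in injured mice and reached 24.0% (Nid1) in uninjured mice. For Lamc1 and Nid1 the antibody-treated values of 18.1% and 26.2% were close to the uninjured values of 17.6% and 24.0%. The SD itself was larger in injured mice for Col4a2 and Lamb2 and in uninjured mice for Lamc1. These differences in spread were not tested.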
